A study of Mus musculus with 12 samples.

Results

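Akr1d1, Hsd11b1 and Srd5a1, 3 mouse genes whose enzymes make or break down active glucocorticoids in liver, were examined for binding of the glucocorticoid receptor (GR) in BWTG3 cells, a mouse hepatoma line. Every GR peak with its centre inside a gene's span or within 50 kb of it was taken, which gave 49 peaks. Peaks that shared at least 1 bp were joined across libraries, and the 49 peaks formed 22 of the 47493 regions of the whole series. Of these 22 regions, 11 lay at Akr1d1, 7 at Hsd11b1 and 4 at Srd5a1. The genes were selected on the peak calls and normalized tag counts of these same libraries, so what follows is a description of their values and no p-value is given for them.

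GR binding was measured by chromatin immunoprecipitation and sequencing with a rabbit antibody against GR, in 11 libraries of BWTG3 cells kept without serum for 24 h. The TNFDEX group (3 libraries) received 1000 U/ml of recombinant tumour necrosis factor (TNF) 1 h before 1 µM dexamethasone (Dex), the DEX group (3 libraries) received 1 µM Dex, the TNF group (2 libraries) received 1000 U/ml TNF, and the NI group (3 libraries) was taken as untreated because its title names no agent. Stimulation lasted 3 h in total, all cells were of a single line, and a single input library served as the control for every peak list. The design text calls the replicates biological, but no source used here says how separate their cultures were. No expression was measured, so the hepatoma label could not be checked against markers.

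GR is a nuclear receptor that is held outside the nucleus until a glucocorticoid binds it, and it then binds DNA at response elements made of a pair of half-sites. The ligand that reaches it in a hepatocyte is set by enzymes inside the cell. Hsd11b1 (hydroxysteroid 11-beta dehydrogenase type I) regenerates active glucocorticoid from its inert keto form, using NADPH that the enzyme of H6pd makes in the endoplasmic reticulum. Srd5a1 (steroid 5-alpha reductase type I) and Akr1d1 (the 5-beta reductase) reduce the A-ring of steroids on opposite faces and so inactivate glucocorticoids. Akr1d1 also takes part in bile acid synthesis.

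Signal is given as the normalized tag count of a peak, the number of sequenced tags under it after the authors scaled each library to 20000000 tags. Libraries held 39228805 to 51141996 tags and 2524 to 22590 peaks, and the lowest normalized tag count in a list was between 5.4 and 6.6. Where a library has no peak its level is unknown and is not a level of 0. In 5 libraries (TNFDEX replicates 2 and 3, DEX replicate 3, TNF replicate 2 and NI replicate 3) mitochondrial peaks took 0.355% to 0.541% of all tags, against 0.00645% to 0.0348% in the other 6.

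The upstream promoter sequences of the 3 genes are shown because no GR peak was called in any of them in any library. Each is the 250 bases before the start site, 5′ to 3′ in the gene's reading direction, from RefSeq on GRCm38.p6, a build that shares its coordinates with mm10. Akr1d1 lies on the plus strand (chr6:37529923-37530172), and Hsd11b1 (chr1:193242361-193242610) and Srd5a1 (chr13:69611464-69611713) lie on the minus strand. A single start site was used per gene, and that of Hsd11b1 lies well inside its annotated span.
Akr1d1 promoter: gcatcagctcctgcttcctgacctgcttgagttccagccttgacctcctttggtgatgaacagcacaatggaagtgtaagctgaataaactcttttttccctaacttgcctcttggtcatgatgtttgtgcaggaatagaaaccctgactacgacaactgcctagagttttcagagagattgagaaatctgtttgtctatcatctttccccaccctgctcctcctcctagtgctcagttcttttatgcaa
Hsd11b1 promoter: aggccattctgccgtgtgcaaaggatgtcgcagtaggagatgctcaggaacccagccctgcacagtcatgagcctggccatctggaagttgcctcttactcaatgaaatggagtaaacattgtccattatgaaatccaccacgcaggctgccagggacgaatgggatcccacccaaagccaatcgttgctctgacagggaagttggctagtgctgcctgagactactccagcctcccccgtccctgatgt
Srd5a1 promoter: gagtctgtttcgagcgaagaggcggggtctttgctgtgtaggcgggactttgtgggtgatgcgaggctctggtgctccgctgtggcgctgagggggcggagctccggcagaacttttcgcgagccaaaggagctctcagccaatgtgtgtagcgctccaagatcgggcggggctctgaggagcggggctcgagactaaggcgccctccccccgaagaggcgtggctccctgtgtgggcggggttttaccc
No letter is in capitals because neither GR half-site, AGAACA or its reverse complement TGTTCT, was found in these windows, nor in the 50 bases after each start site. Of 32817 promoter windows of 300 bases in the same table, 19.0% held at least 1 half-site, and 3 held the full palindrome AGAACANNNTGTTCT. Both strands were covered, since each half-site is the reverse complement of the other, and the palindrome contains both half-sites. Across protein-coding genes, 14.2% of such windows were touched by a GR peak in at least 1 of the 11 libraries. The GR peaks of the 3 loci therefore lay elsewhere, and their own sequences were not analysed here.

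Akr1d1 was the one gene of the 3 with strong GR sites, and these formed a pair beyond the gene. The gene spans chromosome 6, 37529978 to 37574921, on the plus strand, and both sites lay past its end, where no gene is annotated. The first (chromosome 6, 37617507 to 37617984) was centred 87.5 kb from the start site and 42.8 kb beyond the gene end, and the second (chromosome 6, 37619075 to 37619253) was centred 89.0 kb from the start site. They are called the +87.5 kb and the +89.0 kb site below. Akr1d1 was the nearest protein-coding gene to both, and the next one in the same direction, Trim24, began 251.6 kb away from the +89.0 kb site. Nearness does not show which gene a site acts on.

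At the +87.5 kb site the normalized tag count was 264.2, 131.0 and 273.8 in TNFDEX replicates 1 to 3 and 170.0, 188.6 and 341.2 in DEX replicates 1 to 3. In the TNF libraries it was 15.7 and 9.6, and in NI a peak was called in replicate 2 alone, at 11.6. Every library with Dex thus stood far above every call without it, while the TNFDEX and DEX values overlapped. The means were 223 ± 79.8 in TNFDEX and 233 ± 93.9 in DEX (SD, n = 3 each). No fold over TNF or NI is given, because the weak peaks of those libraries were called at other positions within the merged region.

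At the +89.0 kb site the normalized tag count was 138.5, 68.0 and 131.2 in TNFDEX replicates 1 to 3, against 124.4, 164.2 and 154.2 in DEX replicates 1 to 3. No peak was called there in any TNF or NI library, so it was the 1 member region in all 6 libraries with Dex and in none without, a pattern of 5.06% of all regions. The means were 113 ± 38.8 in TNFDEX and 148 ± 20.7 in DEX (SD, n = 3 each), and the groups overlapped. TNFDEX replicate 2 had the lowest value of the 6 libraries at both sites.

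**Figure D1:**
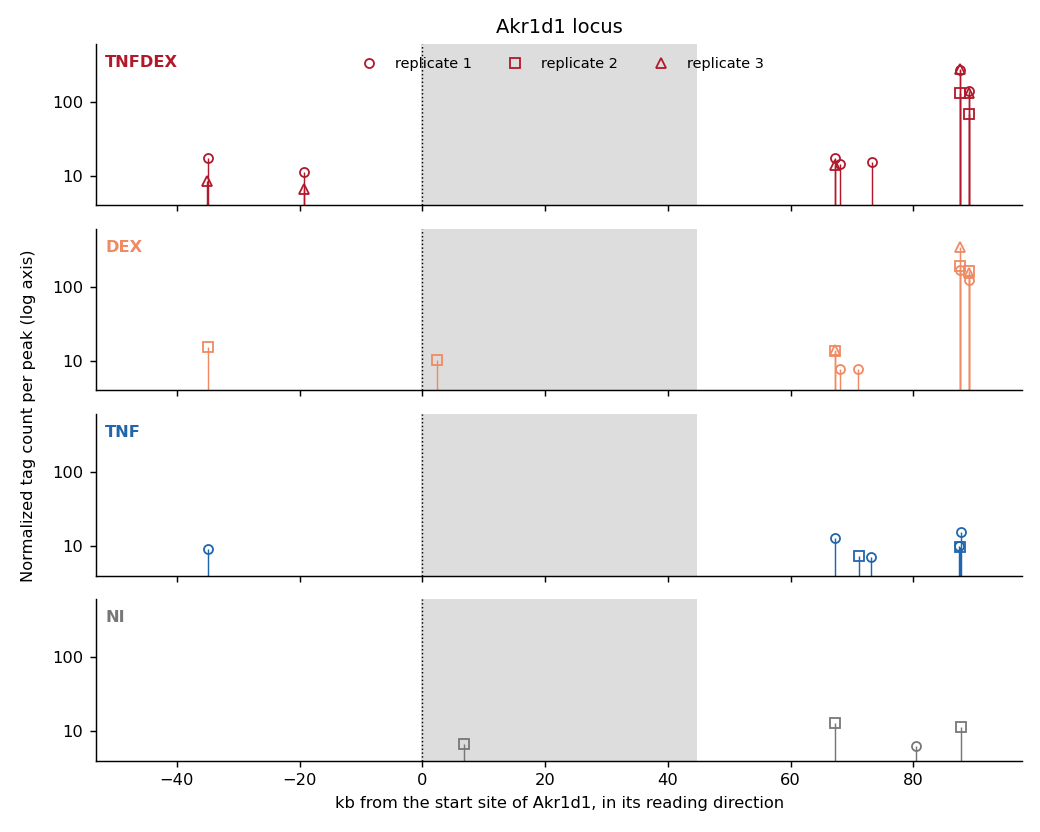
GR peaks at the Akr1d1 locus in the TNFDEX, DEX, TNF and NI libraries (rows, top to bottom). The x axis is the distance in kb from the start site of Akr1d1, the y axis is the normalized tag count of each peak on a log axis, markers tell the replicates apart, the grey band is the gene span and the dotted line its start site. The pair of sites at +87.5 and +89.0 kb holds every value above 17.4.

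Both sites ranked among the strong GR sites of the series. Among the 4022 nuclear regions called in all TNFDEX and DEX libraries, whose mean in DEX had a median of 29.4, the +87.5 kb site ranked 73 and the +89.0 kb site 156. Within a single library the +87.5 kb site ranked between 54 and 97 among all nuclear peaks. These ranks are those of sites proposed for their signal. Peak position, a separate measure, differed little between libraries: centres at the +87.5 kb site fell within 13 bp of each other over the 6 libraries with Dex, and at the +89.0 kb site within 10 bp.

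The authors' lists also give each peak's fold over the input and over the surrounding 10 kb, and its focus ratio, the share of tags placed as a single point source would place them. At the +87.5 kb site the fold over input ranged from 75.9 to 159 in TNFDEX and from 98.6 to 200.02 in DEX. The single input library held 2 tags at this site, so these folds are imprecise and are no measure separate from the tag counts. The focus ratio there was 0.81 to 0.875 in TNFDEX and 0.807 to 0.885 in DEX, and at the +89.0 kb site it was 0.924 to 0.943 in TNFDEX and 0.927 to 0.949 in DEX. In TNF and NI the peaks of the +87.5 kb region had focus ratios of 0.649 to 0.714 and 0.644. The tags of the +89.0 kb site were therefore placed more narrowly than those of the +87.5 kb site in each of the 6 libraries.

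The weak peaks without Dex did not sit on the summit of the Dex peak. Relative to the median centre of the 6 libraries with Dex, TNF replicate 1 had a peak of 10.1 at -137 bp and one of 15.7 at 194 bp, TNF replicate 2 had its peak at 70 bp, and NI replicate 2 had its peak at 159 bp. They rest on 20, 31, 21 and 24 tags, and a 95% Poisson interval, which covers counting error only, puts the NI value between 7.43 and 17.3. The stronger TNF replicate 1 peak, at 15.7, shared no base with a Dex peak and was joined to the region through its neighbours. The merged region is 478 bp wide for this reason, against 179 bp at the +89.0 kb site.

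The spacing of the pair was 1439 to 1458 bp across the libraries with Dex. Of the 4022 regions called in all 6 of these libraries, 5.47% had another such region at least as near as the pair. The +87.5 kb site was the stronger one in every library. On the log2 scale its ratio to the +89.0 kb site was 0.93, 0.95 and 1.06 in TNFDEX replicates 1 to 3, against 0.45, 0.20 and 1.15 in DEX replicates 1 to 3. The means of this log2 ratio were 0.98 ± 0.07 in TNFDEX and 0.60 ± 0.49 in DEX (SD, n = 3 each), and DEX replicate 3 lay above all TNFDEX libraries.

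**Figure D2:**
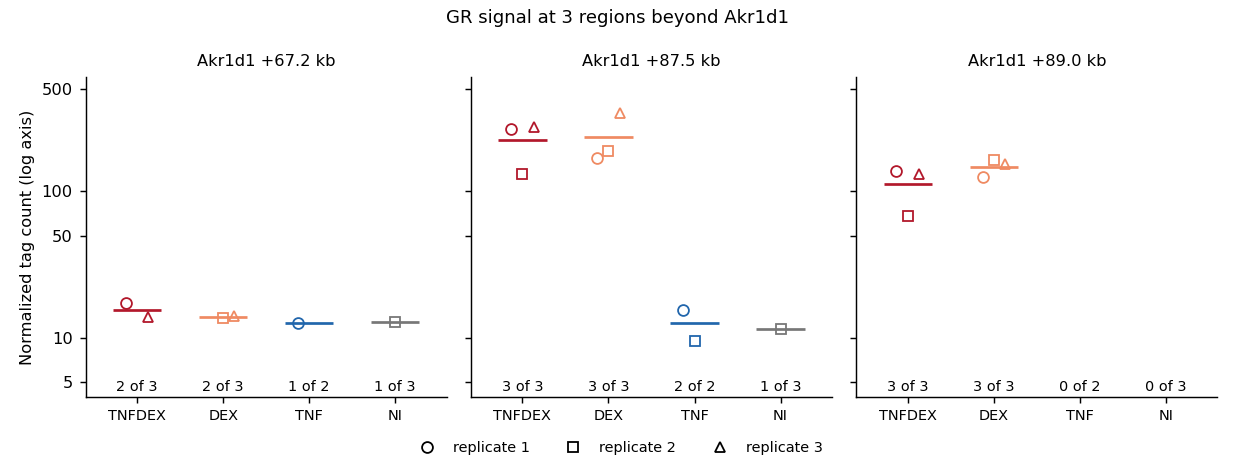
Normalized tag count (log axis) at 3 regions beyond Akr1d1 in the TNFDEX, DEX, TNF and NI groups. Each marker is 1 library, the line is the mean of the libraries that hold a peak, and the number below gives how many do. The +87.5 and +89.0 kb sites lie at 68.0 or above in every library with Dex, and the +67.2 kb site lies between 12.7 and 17.4 wherever it was called.

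A further 3 regions of the Akr1d1 locus were called in at least 2 libraries of a group, all of them weak. One lay 67.2 kb from the start site (chromosome 6, 37597259 to 37597453). It had 17.4 and 14.0 in TNFDEX replicates 1 and 3, 13.8 and 14.2 in DEX replicates 2 and 3, 12.7 in TNF replicate 1 and 13.0 in NI replicate 2. Wherever this region was called its level was nearly the same, with and without Dex, and it had no call in the other 5 libraries. Its fold over input was 4.12 to 5.56, close to the 4-fold that a call needed. Much lower levels could therefore not appear among the calls, and the likeness is partly set by the threshold. A region at -35.0 kb, before the start site (chromosome 6, 37495040 to 37495302) had 17.4 and 8.6 in TNFDEX replicates 1 and 3, 15.3 in DEX replicate 2 and 9.1 in TNF replicate 1. A region at -19.2 kb (chromosome 6, 37510821 to 37511034) had 11.2 and 6.6 in TNFDEX replicates 1 and 3 and no call elsewhere. None of the 3 was called in TNFDEX replicate 2, which held 8641 peaks against 22590 and 14043 in TNFDEX replicates 1 and 3.

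The other 6 regions at Akr1d1 were called in 1 or 2 libraries, at 6.4 to 15.3, and in at most 1 library of any group. Inside the gene there were 2 peaks in all, at 10.2 in DEX replicate 2, 2.4 kb after the start site, and at 6.8 in NI replicate 2, 6.7 kb after it. The 50 kb limit did not cut through a cluster, but the +89.0 kb site lay close to it. The farthest peak inside the limit was that of TNFDEX replicate 2 at this site, 44.3 kb from the gene span. Its normalized tag count of 68.0 was the lowest value at the site. The nearest peak outside the limit lay 58.7 kb away with 14.9.

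None of the Hsd11b1 regions was called in more than 1 library. The gene spans chromosome 1, 193221640 to 193264045, on the minus strand, and its 7 regions came from 6 of the 11 libraries. There were 4 in TNFDEX (14.1 and 8.7 in replicate 1, 6.6 in replicate 2 and 8.2 in replicate 3), 1 in DEX (6.9 in replicate 3), 1 in TNF (6.9 in replicate 2) and 1 in NI (7.8 in replicate 3). No position recurred, so there was no GR site to follow across the groups. They rest on 15 to 34 tags each and their fold over the surrounding 10 kb was 4.02 to 5.33, close to the 4-fold that a call needed. The nearest peak to the start site used here (193242360) lay 9.8 kb into the gene. The annotated span also extends upstream of that start site. The peaks of 6.9 in DEX replicate 3 and 6.6 in TNFDEX replicate 2 lay in this upstream part, at -12.8 and -19.6 kb. Any other start site of the gene was not examined. The strongest, at 14.1, lay inside Lamb3, which encodes a laminin chain, and 34.3 kb from Hsd11b1.

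Srd5a1 had 4 regions, all weak. The gene spans chromosome 13, 69573449 to 69611485, on the minus strand. One region (chromosome 13, 69611064 to 69611292) lay just inside the gene, with peaks centred 0.25 and 0.33 kb after the start site, and was called at 7.0 in TNFDEX replicate 2 and at 9.2 in NI replicate 3. Both of these libraries are among the 5 with much mitochondrial signal, whose part in the calls was not tested. No DEX library held a peak there. Nsun2, which encodes an RNA methyltransferase, is the next gene on the promoter side. The remaining 3 regions had a peak in a single library each, 7.9 in DEX replicate 1, 6.4 in TNF replicate 2 and 6.8 in NI replicate 2, between 28.0 and 31.3 kb from the gene span. The last of them lay in the lncRNA gene A530095I07Rik. The 5 peaks rest on 14 to 19 tags.

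**Figure D3:**
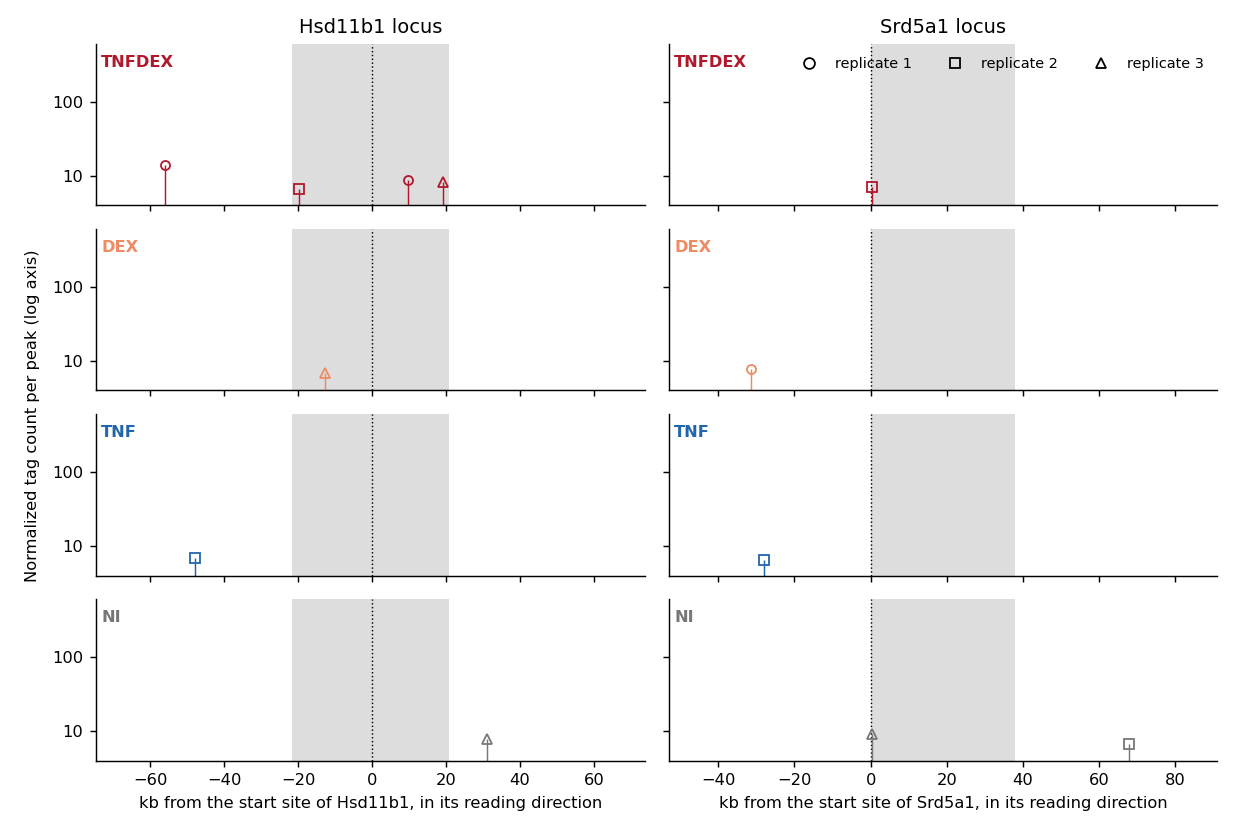
GR peaks at the Hsd11b1 and Srd5a1 loci (columns) in the TNFDEX, DEX, TNF and NI libraries (rows, top to bottom). Axes, markers and grey bands are as in the map of the Akr1d1 locus, with distance in kb from each gene's own start site in its reading direction. No peak exceeds 14.1 and only the region next to the Srd5a1 start site recurs, in 1 TNFDEX and 1 NI library.

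Counted with the rule that a group holds a region when at least 2 of its libraries do, 3 of the 22 regions were called in DEX and not in NI, where the same pattern was found in 16.4% of all 47493 regions. The opposite pattern was found in 0 of the 22 and in 1.07% of all regions. In TNFDEX and not in TNF there were 4 of the 22, against 22.5% of all regions, and in both DEX and TNFDEX there were 3, against 15.7%. When regions called in NI or TNF are left out of the last number, 2 remain, against 12.9%. All of these regions belong to Akr1d1: the +67.2, +87.5 and +89.0 kb sites in DEX, and these with the 2 upstream regions in TNFDEX. The +87.5 kb region was called in both TNF libraries and so is not among the 4. Of the 22 regions, 13 were called in a single library, against 59.5% of all regions. The rule used these contrasts, so the shares describe the loci and test nothing.

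By gene, 1 of the 3 (Akr1d1) had a region called in DEX, against 36.5% of 21887 protein-coding genes with the same 50 kb window. It had none in NI, a pattern seen at 24.7% of protein-coding genes. Hsd11b1 and Srd5a1 had no region called in any group, which was the case for 52.1% of protein-coding genes. The 4 regions called in TNFDEX and not in TNF were 1 without TNFDEX replicate 1 and 1 without TNFDEX replicate 3, since the weak ones rest on these libraries. They were 2 without TNF replicate 2, where the remaining TNF library alone makes the call.

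Setting TNFDEX against DEX shows GR signal with and without TNF in cells that all received Dex. If the 3 h of stimulation include the 1 h of TNF alone, Dex acted for less time in TNFDEX than in DEX. An effect of TNF and one of a shorter time with Dex could then not be told apart. Of the 22 regions, 2, the Akr1d1 pair, had a value in all 6 libraries, against 8.47% of all regions. Their signal was taken from a fit of log2 normalized tag counts over all 4022 nuclear regions called in these 6 libraries, after scaling the libraries to each other with TMM, a trimmed mean of log ratios between libraries. The log2 difference, TNFDEX over DEX, was -0.22 (SE 0.24) at the +87.5 kb site and -0.60 (SE 0.23) at the +89.0 kb site. The median of all 4022 regions was -0.02 after scaling and 0.14 before it, and without scaling the 2 sites had -0.07 and -0.45. In this fit the difference at the +87.5 kb site was smaller than its SE. With a term for high or low mitochondrial signal it was -0.33 (SE 0.19) there, larger than its SE. At the +89.0 kb site it was -0.56 (SE 0.20) with that term.

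After scaling, the +89.0 kb site had 93.3, 106.1 and 106.5 in TNFDEX replicates 1 to 3, against 170.1, 170.4 and 127.4 in DEX replicates 1 to 3. These scaled groups did not overlap, a pattern with TNFDEX below DEX that 5.62% of the 4022 regions showed. In the deposited values, where they overlapped, 0.124% of regions had all TNFDEX values below all DEX values. At the +87.5 kb site the scaled values were 178, 204 and 222 in TNFDEX and 232, 196 and 282 in DEX, and they overlapped. Among all regions, 25.8% had a lower log2 difference than the +87.5 kb site and 2.78% a lower one than the +89.0 kb site.

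Mitochondrial signal divided these 6 libraries unevenly, with 1 TNFDEX and 2 DEX libraries low and 2 TNFDEX and 1 DEX library high. The scaled log2 difference at the +87.5 kb site was -0.26 among the low and -0.40 among the high libraries, and at the +89.0 kb site it was -0.87 and -0.26. Without scaling the +87.5 kb site had 0.56 among the low and -0.85 among the high libraries, a change of sign, and the +89.0 kb site had -0.05 and -0.71. With 1 library on one side of each comparison these within-class values carry no error of their own.

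**Figure D4:**
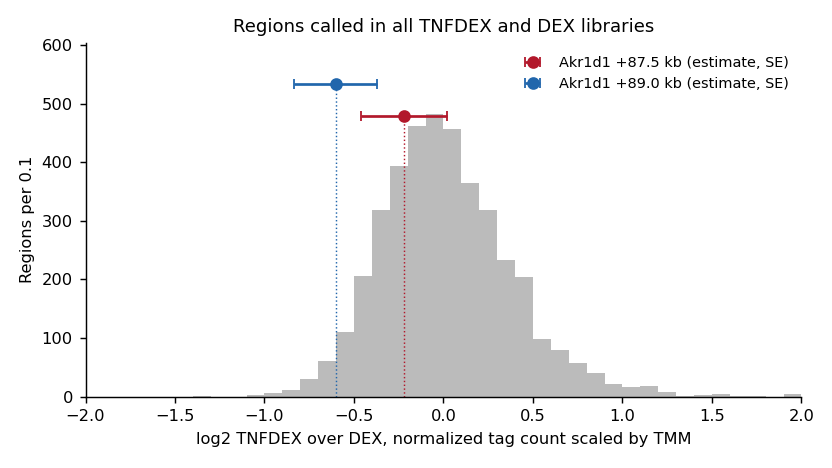
Number of regions by log2 TNFDEX over DEX, in steps of 0.1, for the 4022 regions called in all TNFDEX and DEX libraries, scaled with TMM. The points mark the 2 Akr1d1 sites with their SE, at -0.22 for +87.5 kb and -0.60 for +89.0 kb; the median of all regions is -0.02.

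Regions elsewhere in the genome that resembled the +87.5 kb site were looked up among the 72 other regions with the same calls, that is in 9 of the 11 libraries (all TNFDEX, DEX and TNF libraries and NI replicate 2). Likeness was the root mean square difference of log2 normalized tag count over those 9 libraries. The nearest was inside Nhej1, a DNA repair gene, at 0.65, with 357 ± 148 in TNFDEX and 402 ± 59.3 in DEX (SD, n = 3 each). Next came a region 102 kb from Ptpn1, which encodes a tyrosine phosphatase, at 0.93, and one inside Ccdc192 at 1.01. Both were lower than the Akr1d1 site, with 129 ± 48.9 and 107 ± 41.2 in TNFDEX and 91.3 ± 18.0 and 94.3 ± 39.6 in DEX. Hsd11b1 and Srd5a1 had no DEX region to compare in this way.

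Among the 39 other genes of glucocorticoid handling that were listed, 11 had a region within 50 kb called in DEX and none in NI, against the 24.7% of all protein-coding genes given above, and 0 had the opposite pattern, against 3.06%. In TNFDEX and not in TNF there were 17, against 34.6% of protein-coding genes, and this number was 6 without TNFDEX replicate 1, 6 without TNFDEX replicate 3 and 8 without TNF replicate 2. The DEX number was 7 without DEX replicate 2. Windows of clustered genes overlap, so 1 region can count for several genes. The strongest DEX regions of the 11 genes were 11 distinct regions, and the 17 genes were not checked for this. Those of Cyp21a1, Cbr1, Cyp17a1 and Cyp3a41a were weak, with means of 10.3, 9.55, 9.05 and 8.8 in 2 DEX libraries each. Those of Cyp21a1, Cyp17a1 and Cyp3a41a also had a peak in 1 NI library, at 9.2, 8.2 and 8.9. The regions of Cyp3a13, Cbr1 and Cyp17a1 had Gjc3, Setd4 and Borcs7 as nearest protein-coding genes. By role, a DEX region lay near 0 of 2 further A-ring reductases (Srd5a2 and Srd5a3), 2 of 9 other hydroxysteroid reductases, 3 of 8 Cyp3a hydroxylases, 1 of 8 conjugating enzymes, 1 of 3 carriers and transporters, 3 of 7 enzymes and carriers of synthesis, and 1 of the 2 partners of Hsd11b1, namely H6pd and not Hsd11b2, the oxidising dehydrogenase. No region was called in any group near 20 of the 39, among them Srd5a3 and Cyp3a11, against 52.1% of all protein-coding genes.

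H6pd, whose enzyme feeds NADPH to the Hsd11b1 reductase, had the strongest DEX region of these 39 genes. It lay inside the gene, 23.3 kb after the start site and near the far end of the span (chromosome 4, 149979795 to 149979984), with 148.5, 77.8 and 127.9 in TNFDEX replicates 1 to 3 and 49.6, 77.5 and 78.4 in DEX replicates 1 to 3. No TNF or NI library held a peak there, and the deposited TNFDEX and DEX values overlapped between 77.8 and 78.4. After the TMM scaling used for the Akr1d1 pair, H6pd had 99.99, 121 and 104 in TNFDEX replicates 1 to 3, against 67.8, 80.4 and 64.8 in DEX replicates 1 to 3. The scaled TNFDEX values all lay above the DEX values, a pattern of 7.09% of the 4022 regions. Thus H6pd had a strong GR region while no region of Hsd11b1 itself was called in any group.

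Abcb1a, which encodes a multidrug efflux pump that carries steroids, had a region inside the gene (chromosome 5, 8737229 to 8737419) with 65.3 ± 22.4 in TNFDEX and 61.9 ± 29.8 in DEX (SD, n = 3 each) and no call in TNF or NI, and these groups overlapped before and after scaling. A region 31.1 kb from Cyp3a57, a member of the cytochrome P450 family that hydroxylates steroids, whose nearest gene is Zscan25 (chromosome 5, 145313911 to 145314136), had 100.8, 40.3 and 88.0 in TNFDEX replicates 1 to 3, against 26.8, 33.1 and 20.7 in DEX replicates 1 to 3. Here the TNFDEX values lay above the DEX values, as in 2.59% of the 4022 regions, and after scaling too. It also had 44.6 and 13.3 in the TNF libraries and 15.5 in NI replicate 2.

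A region 12.8 kb from the estrogen sulfotransferase gene Sult1e1, inside its neighbour Sult1d1, had 28.9 ± 7.35 in TNFDEX and 20.5 ± 11.05 in DEX (SD, n = 3 each), with overlap before and after scaling. A region inside Akr1c14, which encodes a 3-alpha hydroxysteroid dehydrogenase that acts after the A-ring reductases, had 31.1 and 16.9 in TNFDEX replicates 1 and 3 and 17.4, 16.8 and 23.7 in DEX replicates 1 to 3. Neither was called in TNF or NI. All 5 of these regions were weaker in DEX than either site of the Akr1d1 pair. This did not hold in TNFDEX, where H6pd had 118 ± 36.4 against 113 ± 38.8 at the +89.0 kb site (SD, n = 3 each).

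**Figure D5:**
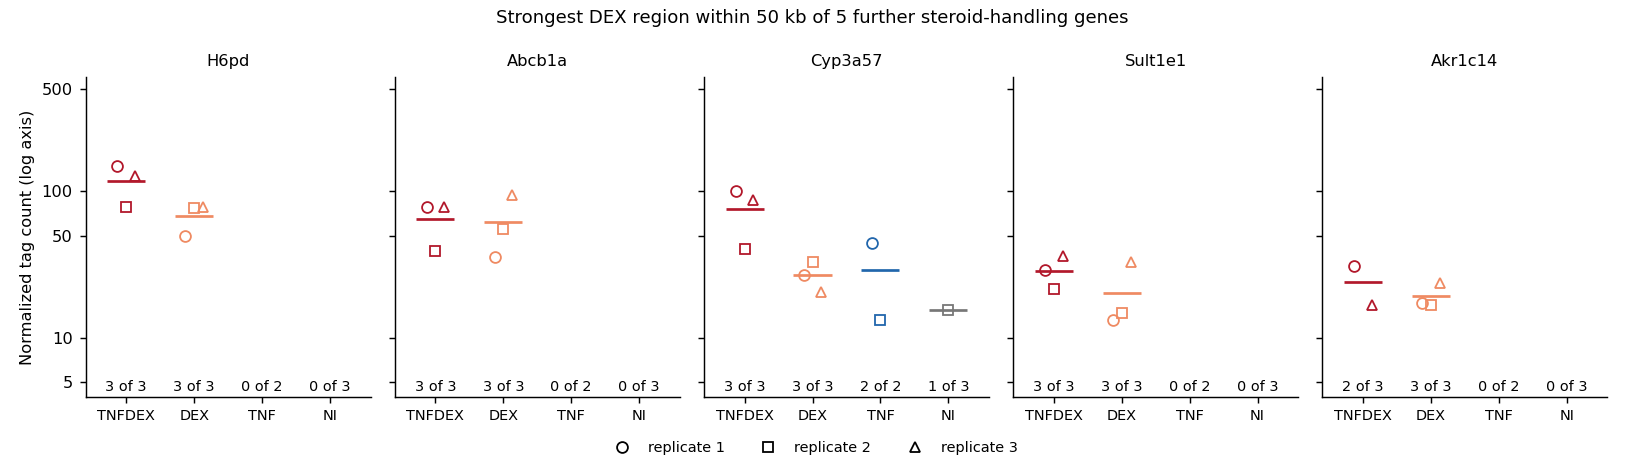
Normalized tag count (log axis) at the strongest DEX region within 50 kb of 5 further genes of glucocorticoid handling in the TNFDEX, DEX, TNF and NI groups. Each marker is 1 library, the line is the mean of the libraries with a peak, and the number below gives how many hold one. H6pd and Abcb1a have values in all libraries with Dex and none without, and the Cyp3a57 region lies at 40.3 or above in TNFDEX and at 33.1 or below in DEX.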

How the data were processed

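GR peak lists of 11 libraries were analysed, and the file of the input sample was not used. The submitters' processing notes name HOMER 4.6, Bowtie 1.0.0, CASAVA 1.8 and the mm10 build. Per the file headers, peaks were called in each library separately with findPeaks against 1 input library, at a false discovery rate of 0.001, 4-fold over the input and over a 10000 bp surrounding, with Poisson thresholds of 0.0001. The deposited signal is the normalized tag count, scaled to 20000000 tags. The deposited fraction is the focus ratio, and the deposited ratios are folds over input and surroundings. The deposited p-values are Poisson p-values, used with the deposited scores for the authors' calling alone and not printed. Peaks sharing at least 1 bp were merged, and a group was said to hold a merged region if 2 or more of its libraries had a peak in it.

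Signal was fitted with limma 3.58.1 in R 4.3.3 on log2(normalized tag count) without a pseudocount, after unweighted TMM scaling, and the fit was tested on simulated data. The tag numbers behind weak peaks were recovered as normalized tag count times library size, within 0.123 of a whole tag. Gene spans came from RefSeq on GRCm38.p6, with start sites from its promoter table, and exons and introns were not told apart. Tables were handled with pandas 2.3.3 in Python 3.11.15. The members and the list of 39 further genes were chosen with earlier results of these data known. Named were the 3 members with all their regions, the 5 listed genes with the highest mean in DEX, and the 3 regions most like the strongest member region. Replicates may be technical in part, and no p-value is given for the members.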

Additional observations from a re-analysis of the deposited data

How the results depend on the processing

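The 2 Akr1d1 sites were among the 2524 strongest peaks of each library with Dex. They were singled out for their calls in every DEX and TNFDEX library, so requiring every library could not remove them. Widening the window from 50 to 100 kb could not remove them either. With a 25 kb window, which leaves the pair outside, 1 member region was called in DEX and not in NI, 2 in TNFDEX and not in TNF, and 1 in both DEX and TNFDEX. Requiring every library left 1 region in TNFDEX and not in TNF, and 6 and 4 listed genes for DEX without NI and TNFDEX without TNF. With the 2524 strongest peaks the numbers were 2 regions in TNFDEX and not in TNF and 3 listed genes in each comparison. A 100 kb window gave 20 listed genes in DEX and not in NI. The shares of all regions and of all protein-coding genes given above hold for the main settings with every library. None was taken at another window or calling rule or with a library left out, so those counts describe no trait of the listed genes. Leaving out 1 library at a time gave 2 to 3 member regions in DEX and not in NI, 1 to 4 in TNFDEX and not in TNF, 2 to 3 in both, 7 to 11 listed genes for DEX and 6 to 14 for TNFDEX. The median log2 difference of the pair, TNFDEX over DEX, was -0.41 and ranged from -0.46 to -0.26 over 14 alternatives, among them other scalings, a pseudocount of 1, a mean of at least 20 and a mitochondrial term, and from -0.46 to -0.34 with 1 library left out. The difference stayed negative at both sites in each of them, but not all of them could have moved it. A block for replicate number could only return -0.41, because each number occurs in both groups. The SE in that fit was 0.27 at the +87.5 kb site and 0.28 at the +89.0 kb site. Summing the peaks of a region also left the difference unchanged, because each library with Dex had a single peak at each site. Replicates of equal number deviated from their group means with correlations of 0.37, -0.36 and 0.57. TNFDEX replicate 2 correlated best with DEX replicate 3, so the numbers were not taken as pairs. Every correlation between libraries alike in mitochondrial signal (both low or both high) was positive, at 0.36 to 0.57. Every correlation between a low and a high library was negative, at -0.58 to -0.20. Deviations from a group mean cancel out within the group, so the negative values follow in part from the positive ones and add no separate result. The main fit has no term for this division, whose cause was not tested. These changes in number come with fewer or more peaks, genes' windows or libraries counted, and no other cause was tested. Weak peaks rested on 13 to 42 tags, and the lowest normalized tag count in a list was 5.4 to 6.6. A region without a call may hold GR that fell short of the calling thresholds.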
